A study of Homo sapiens with 9 samples.

Results

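The EGF receptor family and its ligands were followed as 10 genes in cells exposed to the compounds RSGL or BSGL. The members were chosen by name, with earlier results of these data known. They are the 4 receptor genes EGFR, ERBB2, ERBB3 and ERBB4 and the 6 ligand genes EREG, AREG, TGFA, HBEGF, BTC and EPGN, and all 10 were found among the 45754 genes of the deposited table. Receptors of this family are tyrosine kinases that pair at the cell surface when a ligand binds, and then signal through RAS and ERK and through PI3 kinase. ERBB2 has no known ligand of its own and ERBB3 has little kinase activity, so each works mainly in pairs with another member. The ligands are made as membrane-bound precursors and released by metalloproteases, and their genes are known to be induced by ERK signalling. In lung adenocarcinoma EGFR is best known as an oncogene and drug target.

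The samples were 9 RNA-seq libraries, 3 per group, from cells whose label is H441, a human lung adenocarcinoma line, grown in RPMI medium with 10% serum. The RSGL group had 10 µM RSGL for 24 h, the BSGL group 10 µM BSGL for 24 h, and the control group 0.1% DMSO for 24 h. A genotype tag names A549 for the RSGL libraries and H460 for the BSGL and control libraries, although all 9 carry H441 as their cell line. Which label is right is not known here, and if the tag gave the line, treatment with RSGL and a difference between cell lines could not be told apart in any comparison of RSGL below. The labels do not say that the 3 libraries of a group came from separate cultures, so p-values reflect only how much these libraries vary, and that variation may be technical.

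The libraries held 16720414 to 18738947 fragments in genes. Library pairs of a group differed beyond counting noise, with a chi-square per degree of freedom of 4.13 to 9.28. Of 9 lung epithelial marker genes, several of them known from H441, 0 reached 1 FPKM in at least 3 libraries, and SCGB3A2 was listed at 0 throughout. Each of the 6 ordered pairs of groups had 0 genes with at least 5 FPKM in all 3 libraries of one group and under 0.1 FPKM in all 3 of the other. Markers of endothelial and T cells were near 0, with 0 of 7 past the filter in each list, and the T cell genes CD3D, CD3E and CD3G were at 0. Of 8 macrophage genes 2 passed, CD68 and CD14, and the list summed to 117 to 122 FPKM under RSGL, 46.6 to 47.8 under BSGL and 42.2 to 42.7 in control, with AIF1 at 0. CD68 alone reached 121 FPKM, so that it made up nearly all of the sum in that library. Of 7 basal genes 1 passed, SOX2, and the list summed to 2.44 to 2.59 FPKM under RSGL, 8.42 to 8.75 under BSGL and 8.34 to 9.68 in control. Of 9 fibroblast genes 3 passed, and the list summed to 7.93 to 8.21 FPKM under RSGL, 10.4 to 11.1 under BSGL and 9.95 to 11.4 in control. Any part of these genes' cells in the results below was not tested. RNA came from whole cultures, so fewer cells of a type and less RNA per cell cannot be told apart.

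The 4 ligands that passed the filter on low values and EGFR rose under RSGL, where 27.2% of all tested genes were called higher. No member was called under BSGL, where only 0.0861% of all tested genes were called. EREG was 2.80-fold, TGFA 3.00-fold, HBEGF 2.66-fold, AREG 1.93-fold and EGFR 1.94-fold as high in RSGL libraries as in control libraries, as ratios of mean FPKM (n = 3 each). ERBB2 was slightly lower, at 0.889 of the control level. Expression is given as FPKM, fragments scaled to gene length and to library size. Levels of different genes can be compared only as far as the deposited gene lengths match their transcripts. Tests used limma on log2(FPKM + 1), fitted across the 12775 genes that reached 1 FPKM in 3 or more libraries, and a gene was called at a Benjamini-Hochberg adjusted p under 0.05. Of the 10 members 6 passed this filter, and each of the 6 was above 1 FPKM in all 9 libraries. ERBB3, ERBB4, BTC and EPGN did not pass. Fragments per library ran from 147 to 439 for HBEGF, the thinnest of the 6, and from 4769 to 14692 for EREG, the deepest.

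**Figure D1:**
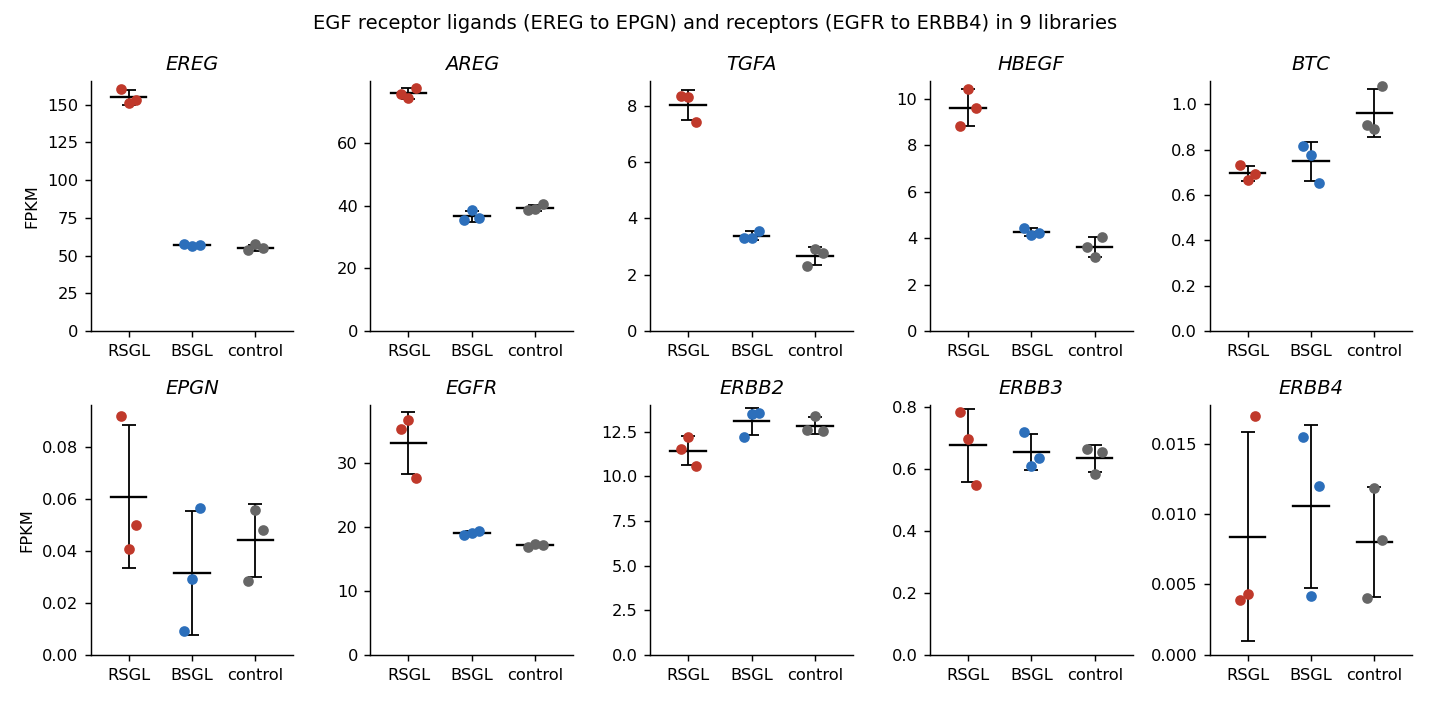
FPKM of the 10 members in each library (points), with the group mean (line) and SD (bars, n = 3), for RSGL, BSGL and control, each panel with its own axis from 0. EREG, AREG, TGFA, HBEGF and EGFR lie higher in all 3 RSGL libraries than in the other 6, while ERBB3, ERBB4 and EPGN overlap between all groups.

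The promoters of the 5 genes that rose, and of ERBB2, which did not, are shown because these are the members whose levels moved together or apart. Sequences are those of RefSeq on GRCh38.p14, from 250 bases before to 50 bases after the annotated start, 5′ to 3′ on the gene's strand. RefSeq promoters were matched by symbol for 9 of the 10 members, with ERBB3 the exception, and EGFR and TGFA had a second one that is not printed. Capitals mark matches to any of 7 motifs searched on both strands.
EREG, chr4:74364895-74365194, plus strand: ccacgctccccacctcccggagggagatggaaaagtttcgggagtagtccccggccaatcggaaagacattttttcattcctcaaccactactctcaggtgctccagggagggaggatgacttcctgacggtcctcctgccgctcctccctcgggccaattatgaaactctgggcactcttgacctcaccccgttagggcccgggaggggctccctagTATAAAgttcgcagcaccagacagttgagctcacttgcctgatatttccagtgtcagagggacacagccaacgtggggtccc
AREG, chr4:74444886-74445185, plus strand: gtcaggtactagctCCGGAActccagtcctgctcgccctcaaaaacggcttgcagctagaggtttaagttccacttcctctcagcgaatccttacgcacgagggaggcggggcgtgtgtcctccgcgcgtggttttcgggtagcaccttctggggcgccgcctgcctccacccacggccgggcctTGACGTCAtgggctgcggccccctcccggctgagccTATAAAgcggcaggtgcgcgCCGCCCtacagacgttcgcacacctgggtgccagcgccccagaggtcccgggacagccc
TGFA, chr2:70553777-70554076, minus strand: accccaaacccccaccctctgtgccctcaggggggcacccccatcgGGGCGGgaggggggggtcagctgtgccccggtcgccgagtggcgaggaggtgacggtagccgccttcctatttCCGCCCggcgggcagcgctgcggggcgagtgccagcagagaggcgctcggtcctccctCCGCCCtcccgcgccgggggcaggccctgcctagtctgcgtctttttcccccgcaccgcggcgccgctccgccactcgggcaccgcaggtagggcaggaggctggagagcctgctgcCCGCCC
HBEGF, chr5:140346554-140346853, minus strand: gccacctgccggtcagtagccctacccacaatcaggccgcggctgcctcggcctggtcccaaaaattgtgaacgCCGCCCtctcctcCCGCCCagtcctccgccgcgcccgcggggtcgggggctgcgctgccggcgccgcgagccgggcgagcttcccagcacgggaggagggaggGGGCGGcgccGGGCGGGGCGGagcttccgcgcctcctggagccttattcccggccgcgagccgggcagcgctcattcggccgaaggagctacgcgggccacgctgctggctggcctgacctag
EGFR, chr7:55018767-55019066, plus strand: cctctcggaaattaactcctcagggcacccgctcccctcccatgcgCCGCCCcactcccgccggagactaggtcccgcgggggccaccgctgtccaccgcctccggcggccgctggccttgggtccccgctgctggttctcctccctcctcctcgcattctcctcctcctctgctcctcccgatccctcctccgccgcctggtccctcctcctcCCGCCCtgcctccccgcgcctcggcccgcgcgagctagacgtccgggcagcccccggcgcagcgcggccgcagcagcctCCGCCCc
ERBB2, chr17:39687844-39688143, plus strand: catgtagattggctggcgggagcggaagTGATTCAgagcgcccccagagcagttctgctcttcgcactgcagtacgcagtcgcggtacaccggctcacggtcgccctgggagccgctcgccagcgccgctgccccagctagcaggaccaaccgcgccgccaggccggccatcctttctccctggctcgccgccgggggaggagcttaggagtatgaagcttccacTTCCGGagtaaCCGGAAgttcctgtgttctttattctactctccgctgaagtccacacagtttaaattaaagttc

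The motifs were the AP-1 element TGANTCA, the cAMP response element TGACGTCA, the ETS core CCGGAA, the GC box GGGCGG, the CHOP and ATF4 element TTGCATCA, the E-box CACGTG and the TATA box TATAAA. N stands for any base, so the AP-1 string is wider than the usual AP-1 site, which has C or G there. EREG and AREG each held a TATA box, starting 32 and 29 bases before the start, a motif present in 11.5% of all 35116 promoters searched. AREG also held the palindromic cAMP response element 65 bases before the start, present in 1.85% of all promoters, an ETS core 236 bases before it and a GC box 9 bases before it. The second TGFA promoter held 1 ETS core. HBEGF held 5 GC boxes, 2 of which overlap, TGFA 4 and EGFR 3, and a GC box occurs in 45.0% of all promoters. These 3 promoters were 75 to 75.3% G and C, against a median of 58.7% over all promoters and 57.7% for EREG. ERBB2 held 2 ETS cores, at 25 and 14 bases before the start. It also held 1 match to the AP-1 string, at 222 bases before the start. That match reads TGATTCA, with T at the centre, and so is not the usual AP-1 site. ETS cores occur in 17.2% of all promoters, and matches to the AP-1 string, with any centre base, in 7.71%. The printed promoters of EREG, AREG, TGFA, HBEGF and EGFR held 0 AP-1 matches in these windows, while the second EGFR promoter, not printed, held 2 AP-1 matches, 232 and 136 bases before its start, and 2 TATA boxes. None of the 6 printed windows held the CHOP and ATF4 element or the E-box, present in 0.866% and 7.26% of all promoters. The starts of the 6 printed promoters lie 0 to 189 bases from the gene ends given in the deposited table. That of the second TGFA promoter lies 569 bases away, and that of the second EGFR promoter 90807 bases away, inside the gene. No match and no start was tested for use in these cells. Any other starts of these genes, ERBB2 among them, were not searched.

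EREG, which encodes epiregulin, a ligand of EGFR and ERBB4, was the highest member in every library. It had 160.2, 151 and 153.2 FPKM in RSGL libraries, 57.7, 56.4 and 57.0 FPKM in BSGL libraries, and 53.6, 57.4 and 54.8 FPKM in control libraries. All 3 RSGL libraries lay far above the other 6, and BSGL and control libraries overlapped. The log2 change between RSGL and control was 1.47 (SE 0.0352, 95% interval 1.39 to 1.55, limma adjusted p = 1.77e-09), and 64 of the 12775 genes tested rose by more.

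AREG, the gene of amphiregulin, an EGFR ligand that binds heparin, was the second highest member in every library. It stood at 75.5, 74.3 and 77.6 FPKM under RSGL, 35.3, 38.5 and 35.9 FPKM under BSGL, and 38.7, 39.01 and 40.4 FPKM in control. The RSGL libraries were again the highest, and the BSGL libraries all lay just below the control libraries. AREG rose by 0.93 on the log2 scale between RSGL and control (SE 0.0385, limma adjusted p = 4.39e-08).

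TGFA encodes transforming growth factor alpha, the classical autocrine EGFR ligand of carcinoma cells. It had 8.36, 8.32 and 7.43 FPKM in RSGL libraries, 3.32, 3.29 and 3.56 FPKM in BSGL libraries, and 2.32, 2.93 and 2.78 FPKM in control libraries. The 3 groups did not overlap, with BSGL between the others. Its log2 change under RSGL was 1.3 (SE 0.0714, limma adjusted p = 2.86e-07), and on the log2(FPKM + 1) scale this understates the change of a gene at this level.

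HBEGF encodes heparin-binding EGF-like growth factor, a ligand of EGFR and ERBB4 that also serves as the diphtheria toxin receptor. It stood at 8.82, 10.4 and 9.62 FPKM under RSGL, 4.46, 4.15 and 4.21 FPKM under BSGL, and 3.61, 3.18 and 4.06 FPKM in control. The groups again did not overlap, though the highest control library lay close to the lowest BSGL library. The log2 change under RSGL was 1.2 (SE 0.077, limma adjusted p = 8.39e-07).

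BTC and EPGN, the genes of betacellulin and epigen, were low in every library. BTC, whose product binds EGFR and ERBB4, had 0.731, 0.666 and 0.691 FPKM under RSGL, 0.816, 0.778 and 0.653 FPKM under BSGL, and 0.911, 0.893 and 1.08 FPKM in control. Both compound groups lay below the control libraries. With the filter on low values left out, BTC missed the threshold between RSGL and control (limma adjusted p = 0.0547) and between BSGL and control (limma adjusted p = 0.902), over 30093 genes. EPGN rested on 1 to 10 fragments per library. Its highest library, RSGL replicate 1, had 0.092 FPKM, with an exact 95% Poisson interval of 0.0441 to 0.169 that covers counting error only. A lncRNA on the other strand, LOC105377276, overlaps EPGN and averaged 0.904 FPKM under RSGL, 1.31 under BSGL and 1.37 in control. Whether the counting was strand-specific is not stated, so reads of overlapping genes on opposite strands cannot be told apart.

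EGFR, the receptor that all 6 ligands bind, was the highest of the 4 receptors in every library. It had 35.2, 36.6 and 27.6 FPKM in RSGL libraries, 18.7, 19.0 and 19.3 FPKM in BSGL libraries, and 16.9, 17.3 and 17.2 FPKM in control libraries. RSGL replicate 3 lay below the other RSGL libraries and still above all BSGL and control libraries. The log2 change under RSGL was 0.90 (SE 0.0871, 95% interval 0.71 to 1.10, limma adjusted p = 2.23e-05), and 1.03 without that library. The antisense gene EGFR-AS1 overlaps EGFR and stood at 0.0571 to 0.34 FPKM.

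ERBB2, the co-receptor known as HER2, had 11.5, 12.2 and 10.6 FPKM under RSGL, 12.2, 13.5 and 13.6 FPKM under BSGL, and 12.6, 13.4 and 12.5 FPKM in control. The RSGL libraries lay just below all others. ERBB2 fell by 0.16 on the log2 scale under RSGL (SE 0.0585, limma adjusted p = 0.0431), a call near the threshold. It was lost on leaving out RSGL replicate 1 (adjusted p = 0.0761) or 3 (0.142), BSGL replicate 2 (0.0535) or 3 (0.0511), or control replicate 1 (0.0674), 2 (0.136) or 3 (0.0572). It was also lost with no filter (0.105), without the trend and robust options (0.0562) and with only the compared groups fitted (0.0505), so that adjusted p-values ran from 0.00674 to 0.142 over 20 alternatives. The protein-coding gene MIEN1, at 30.4 to 38.4 FPKM, overlaps ERBB2 on the other strand and averaged 37.7 FPKM under RSGL, 35 under BSGL and 33.2 in control.

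ERBB3 and ERBB4, the neuregulin receptors, were low. ERBB3 had 0.782, 0.695 and 0.548 FPKM under RSGL, 0.717, 0.607 and 0.635 FPKM under BSGL, and 0.663, 0.584 and 0.654 FPKM in control, and all groups overlapped. With no filter its adjusted p was 0.798 between RSGL and control and 1 between BSGL and control by limma. ERBB4 rested on 1 to 4 fragments per library, or 6 fragments in all under RSGL, 8 under BSGL and 6 in control. A difference in ERBB4 was not detectable at this depth.

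**Figure D2:**
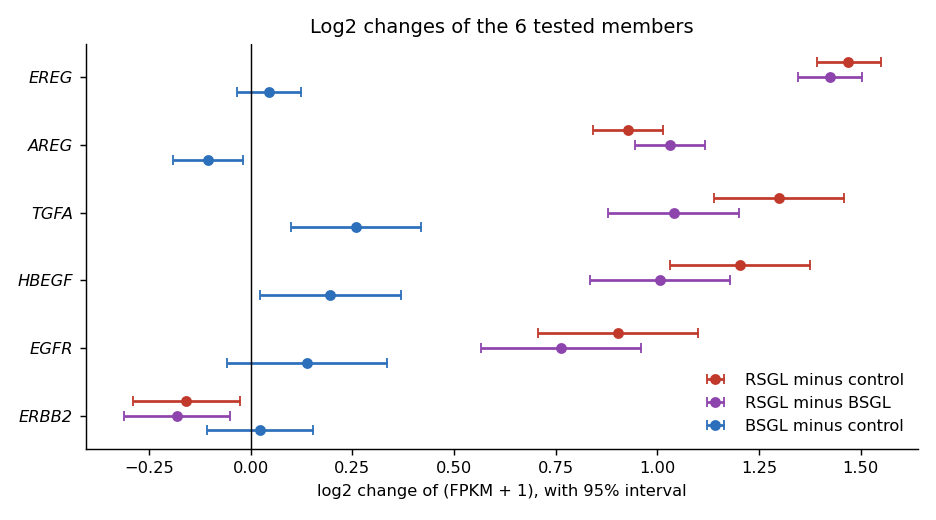
Differences in mean log2(FPKM + 1) with 95% intervals for the 6 tested members, for RSGL minus control, RSGL minus BSGL and BSGL minus control (n = 3 libraries per group). In EREG, AREG, TGFA, HBEGF and EGFR both RSGL comparisons lie between 0.76 and 1.47, and in ERBB2 they lie just below 0.

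Of the 6 tested members, 5 were called higher and 1 lower between RSGL and control, where 27.2% of all 12775 tested genes were called higher and 27.6% lower, 54.8% in all. A call alone is therefore common under RSGL. A called rise of at least 1 on the log2 scale was found in 3 members, EREG, TGFA and HBEGF, against 1.79% of all genes. All 6 had an unadjusted p under 0.05, as had 59.7% of all genes, and in all 6 the libraries of the groups did not overlap, as in 61.2% of all genes. The median log2 change was 1.07 over the 6 members and -0.000854 over all genes tested. Members were chosen with earlier results of these data known. Their counts and medians set against all genes, here and for RSGL against BSGL, are therefore not independent evidence. Comparisons of RSGL and of BSGL with control share the 3 control libraries.

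Between BSGL and control 0 of the 6 members were called by limma, and 0 by limma-voom on recovered fragments, where 0.0861% of all genes were called by limma, 0.047% higher and 0.0391% lower. At an unadjusted p under 0.05 there were 3 of 6, TGFA, HBEGF and AREG, where 6.71% of all genes passed. TGFA had the largest difference of the 6, 0.26 on the log2 scale (95% interval 0.10 to 0.42, unadjusted p = 0.00498, limma adjusted p = 0.39), and was higher in 3 of 3 BSGL libraries than in every control library. HBEGF differed by 0.20 (interval 0.02 to 0.37, adjusted p = 0.67) and EGFR by 0.14 (interval -0.06 to 0.34, adjusted p = 0.853). The fit takes 1 spread per gene from all 9 libraries, so the EGFR interval also reflects the RSGL libraries. EGFR had an SD of 4.85 FPKM under RSGL, 0.308 under BSGL and 0.244 in control. For AREG the difference was -0.10 (interval -0.19 to -0.02, adjusted p = 0.632). EREG and ERBB2 differed by 0.05 (interval -0.03 to 0.12) and 0.02 (interval -0.11 to 0.15). The groups did not overlap in 4 of the 6, EGFR, AREG, TGFA and HBEGF, as in 12.8% of all genes. The intervals of EREG, EGFR and ERBB2 contain 0 and also small changes, so these values do not show that BSGL left the genes at the control level.

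RSGL and BSGL were set against each other at the same dose and time, as 1 pair of compounds known here only by their code names. All 6 tested members differed, 5 higher and 1 lower under RSGL, against 26.5% and 27.5% of all genes and 54% in either direction. All 6 had an unadjusted p under 0.05, as had 59% of all genes, and the libraries of the 2 groups did not overlap in any of the 6, against 61.2%. A called rise of at least 1 on the log2 scale was found in 4 of them, EREG, AREG, TGFA and HBEGF, against 1.52% of all genes. EREG differed by 1.42 on the log2 scale (95% interval 1.35 to 1.503, limma adjusted p = 2.99e-09) and AREG by 1.03 (interval 0.95 to 1.118, adjusted p = 2.57e-08). The differences were 1.04 for TGFA (interval 0.88 to 1.2), 1.01 for HBEGF (interval 0.83 to 1.18) and 0.76 for EGFR (interval 0.57 to 0.96). ERBB2 was lower under RSGL by -0.18 (interval -0.31 to -0.05, adjusted p = 0.0246). Its call was lost without RSGL replicate 3 (adjusted p = 0.0831), BSGL replicate 2 (0.0804) or BSGL replicate 3 (0.0827), and with no filter (0.0674).

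The summed FPKM of the 6 member ligands was higher under RSGL, and EREG made up more of it. EGF and the neuregulins, given further below, were not part of this sum. The FPKM of the 6 ligands summed to 253.7, 244.7 and 248.6 in RSGL libraries, 101.6, 103.1 and 101.4 in BSGL libraries, and 99.1, 103.4 and 103.2 in control libraries. All 3 RSGL libraries lay far above the rest, while BSGL and control overlapped. EREG made up 62.2% ± 0.862 of the sum under RSGL, 55.9% ± 1.09 under BSGL and 54.2% ± 1.2 in control (SD, n = 3). AREG made up 30.4% ± 0.731 under RSGL, 35.8% ± 1.34 under BSGL and 38.6% ± 0.806 in control. The ratio of EREG to AREG was 2.12, 2.03 and 1.98 under RSGL, 1.64, 1.47 and 1.59 under BSGL, and 1.39, 1.47 and 1.35 in control. RSGL libraries did not overlap the others in this ratio, and its difference was not tested.

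The 4 receptors summed to 47.5, 49.5 and 38.7 FPKM under RSGL, 31.6, 33.1 and 33.5 FPKM under BSGL, and 30.1, 31.3 and 30.4 FPKM in control. EGFR made up 73.1% ± 1.62 of that sum under RSGL, 58.0% ± 0.921 under BSGL and 56.0% ± 0.607 in control. The ratio of EGFR to ERBB2 was 3.06, 3.00 and 2.61 under RSGL, 1.53, 1.41 and 1.42 under BSGL, and 1.34, 1.29 and 1.37 in control. The 3 groups did not overlap in this ratio, which was not tested. In RSGL replicate 3, where EGFR was lowest among RSGL libraries, ERBB2 was lowest too.

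**Figure D3:**
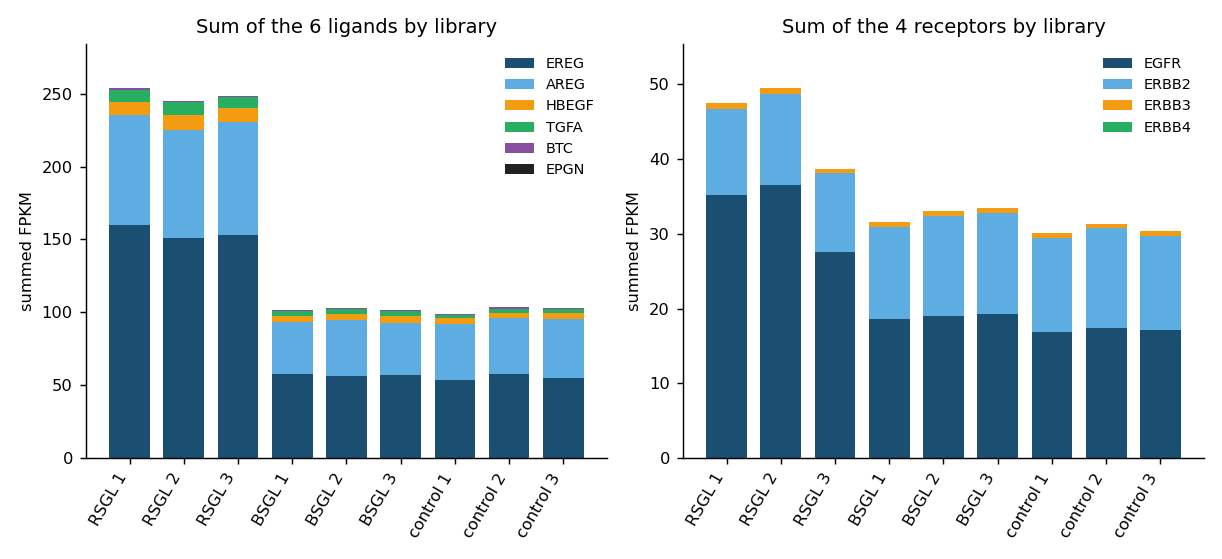
Summed FPKM of the 6 ligands (left) and of the 4 receptors (right) in each library, with 1 bar per library split by gene. The ligand sum is 244.7 to 253.7 FPKM in RSGL libraries and 99.1 to 103.4 FPKM in the BSGL and control libraries, and EREG and AREG take most of it.

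In control libraries the order of mean levels was EREG, AREG, EGFR, ERBB2, HBEGF, TGFA, BTC, ERBB3, EPGN and ERBB4, and the libraries of neighbours in this order did not overlap. Under RSGL the order was the same, but BTC (0.666 to 0.731 FPKM) and ERBB3 (0.548 to 0.782 FPKM) overlapped. HBEGF, at 8.82 to 10.4 FPKM under RSGL, came close to ERBB2, at 10.6 to 12.2 FPKM. Under BSGL the order was also the same, and BTC and ERBB3, and EPGN and ERBB4, overlapped.

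By position on GRCh38, EPGN (gene ID 255324), EREG (2069), AREG (374) and BTC (685) lie in 1 stretch of chromosome 4. EPGN is at 74307571 to 74317298, EREG at 74365143 to 74388760, AREG at 74445098 to 74455009 and BTC at 74744759 to 74794718, with BTC on the minus strand and the others on the plus strand. The gap between EREG and AREG is 56.3 kb and that between AREG and BTC 289.8 kb, where the lncRNA gene LOC107986229 lies. EGFR (1956) lies on chromosome 7 at 55019032 to 55207338 and ERBB2 (2064) on chromosome 17 at 39688084 to 39728662. ERBB3 (2065) is on chromosome 12 at 56080025 to 56103507, and ERBB4 (2066), at 211375717 to 212539147, and TGFA (7039), at 70447280 to 70554015, are on chromosome 2. HBEGF (1839) is on chromosome 5 at 140332843 to 140346603.

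Within 500 kb of the stretch from EPGN to BTC the table has 30 genes, of which 8 passed the filter. EREG and AREG rose there and their neighbours EPGN, 47.8 kb upstream of EREG, and BTC stayed under the filter. Among the chemokine genes on the EPGN side, CXCL5 averaged 379 FPKM under RSGL and 272 in control (log2 0.48, limma adjusted p = 6.47e-06), and CXCL2 averaged 23.7 and 17.2 FPKM (0.44, adjusted p = 0.000213). CXCL1 fell, to 25.2 FPKM under RSGL against 85.1 in control (-1.72, adjusted p = 1.73e-07). CXCL3, MTHFD2L and LOC105377276 passed the filter but missed the threshold of the test (adjusted p = 0.12, 0.203 and 0.0682). These 8 genes are too few and too close for a test of the region.

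**Figure D4:**
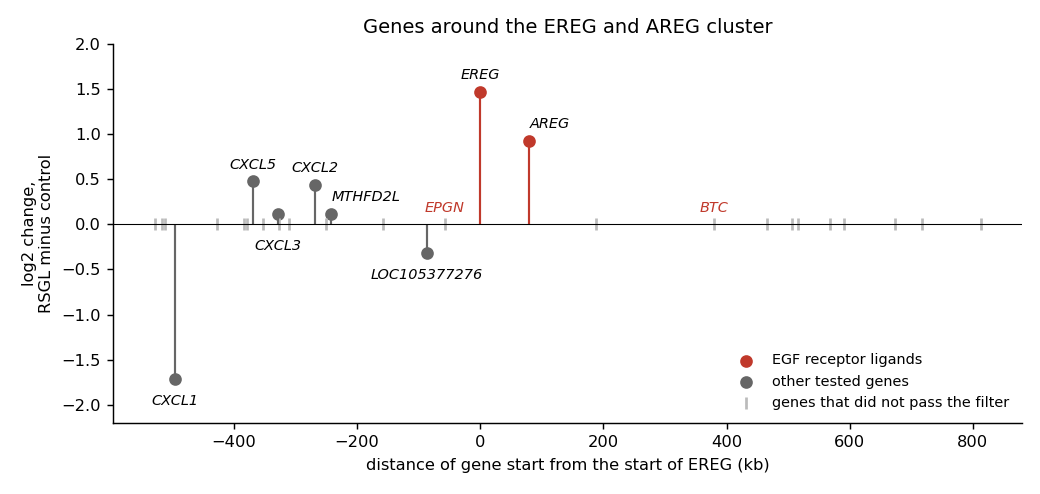
Log2 change between RSGL and control for the 8 tested genes within 500 kb of the EPGN to BTC stretch, against the distance of each gene's start from that of EREG. Ticks at 0 mark genes that did not pass the filter, EPGN and BTC among them. EREG, at 1.47, and AREG, at 0.93, stand highest, and CXCL1, at -1.72, lowest.

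Of 5 other ligands of the family 2 were tested, and 1 was called lower and 1 higher under RSGL. Over all genes 27.6% were called lower and 27.2% higher, and nothing particular to these ligands is read from the counts. NRG1, a neuregulin that binds ERBB3 and ERBB4, had 5.94, 5.80 and 5.71 FPKM under RSGL, 10.3, 10.5 and 10.7 FPKM under BSGL, and 11.7, 11.9 and 11.3 FPKM in control. It fell by 0.89 on the log2 scale between RSGL and control (SE 0.0383, limma adjusted p = 5.59e-08), and its RSGL libraries lay far below the rest. NRG2, another neuregulin, averaged 1.43 FPKM under RSGL and 1.06 in control and was called higher (adjusted p = 0.02). EGF itself was at 0.0633 to 0.159 FPKM under RSGL, 0.201 to 0.364 under BSGL and 0.244 to 0.34 in control. EGF, NRG3 and NRG4 did not pass the filter.

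Together with these ligands, 7 lists held the other genes of the pathway. Of their 65 tested genes 40 were called between RSGL and control, where 54.8% of all genes were called. Of the 65, 30 were called higher, against 27.2% of all genes. The lists were chosen with earlier results of these data known. With upper-quartile scaling 40 were again called, but 25 of them higher, where 7093 genes were called in all in either direction. With all 65 genes tested the number called ran from 34, without RSGL replicate 1, to 41. With no filter it was 36 of 71, where 6994 of all 30093 genes were called. With a filter at 5 FPKM it was 30 of 50, where 5041 genes were called in all. In the ligand shedding list 4 of 10 tested genes rose, ADAM17, RHBDF1, RHBDF2 and FRMD8, and 1, ADAM12, fell, with a median log2 change of 0.14, against 27.2% of all genes called higher and 27.6% lower. ADAM17, the protease known to release AREG, EREG, TGFA and HBEGF, had 15.7, 15.9 and 14.8 FPKM under RSGL, 11.5, 11.4 and 10.3 FPKM under BSGL, and 10.5, 11.1 and 11.8 FPKM in control (log2 0.44, SE 0.0562, limma adjusted p = 0.000101). RHBDF1, an iRhom that carries ADAM17 to the surface, averaged 7.95 FPKM under RSGL and 6.30 in control (adjusted p = 0.0427). That call was lost without RSGL replicate 1 (0.125), 2 (0.0828) or 3 (0.0698), BSGL replicate 1 (0.0551) or control replicate 3 (0.116), and with no filter (0.104), upper-quartile scaling (0.0928) or no trend and robust options (0.053). FRMD8, which stabilises the iRhoms, averaged 13.3 FPKM under RSGL and 11.5 in control (adjusted p = 0.0076).

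The receptor restraint list held 12 tested genes that act on the receptors, not all of them known only to restrain them. Of these, 4 rose, ERRFI1, CBL, LRIG3 and RNF41, and 3 fell, CBLB, LRIG1 and PTPRJ, with a median of 0.03. These shares are near those over all genes, of which 27.2% were called higher and 27.6% lower. ERRFI1, the inducible inhibitor MIG6 that binds the EGFR kinase domain, had 40.8, 40.3 and 40.6 FPKM under RSGL, 24.6, 25.3 and 23.7 FPKM under BSGL, and 25.01, 23.5 and 25.03 FPKM in control (log2 0.70, SE 0.0363, limma adjusted p = 1.91e-07). RNF41, the ubiquitin ligase of ERBB3, averaged 9.36 FPKM under RSGL and 6.10 in control (adjusted p = 3.46e-06). PTPRJ, a receptor phosphatase that acts on EGFR, averaged 10.4 FPKM under RSGL and 16.1 in control (adjusted p = 8.02e-06).

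Genes of receptor endocytosis had 4 of 9 higher, EPS15, STAM, SH3KBP1 and TSG101, and 1 lower, EPN1, with a median of 0.05. The counts here and in the lists of the cascade and of the PI3 kinase branch stand against 27.2% of all genes called higher and 27.6% lower, and nothing particular to these lists is read from them. SH3KBP1, the adaptor CIN85 that CBL recruits, averaged 25.3 FPKM under RSGL and 15.8 in control (log2 0.65, limma adjusted p = 6.95e-07). TSG101, an ESCRT subunit that sorts receptors for degradation, averaged 60.5 and 48.5 FPKM in these groups, and EPN1, the endocytic adaptor epsin, 43.7 FPKM under RSGL and 53.0 in control. Of 13 tested adaptors and kinases of the cascade, 4 rose, GAB2, PTPN11, MAP2K1 and MAP2K2, and 2 fell, with a median of 0.09. MAP2K1, the kinase MEK1, averaged 23.3 FPKM under RSGL and 19.7 in control (log2 0.23, adjusted p = 0.000492). MAP2K2, the kinase MEK2, averaged 46.5 FPKM under RSGL and 40.1 in control. In the PI3 kinase and phospholipase branch 1 of 7, PIK3CA, rose and 2, AKT1 and AKT2, fell, with a median of -0.09. AKT2, a kinase of this branch, averaged 33.6 FPKM under RSGL and 37.9 in control. AKT1, its close relative, averaged 28.8 and 30.7 FPKM, and its call (limma adjusted p = 0.0224) was lost without RSGL replicate 1 (0.0543) or 2 (0.052) or control replicate 1 (0.0831), and with quantile scaling (0.0892).

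In the list of ERK output and feedback genes all 12 tested genes were called higher, against 27.2% of all genes tested. Their median log2 change was 0.78, against -0.000854 over all genes. DUSP5, a nuclear phosphatase of ERK, averaged 74.4 FPKM under RSGL and 9.36 in control, DUSP6, its cytoplasmic relative, 10.0 and 2.88 FPKM, and FOSL1, an AP-1 subunit, 121.1 and 42.2 FPKM. This list was written with results of these data known, so its direction is not independent evidence. IER3 did not pass the filter. Its deposited length, 7440 bases, exceeds its deposited span, 2043995 to 2045346, so its FPKM is uncertain. Between BSGL and control 0 of the 65 tested genes of the 7 lists were called by limma and 0 by voom, where 0.0861% of all genes were called by limma.

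**Figure D5:**
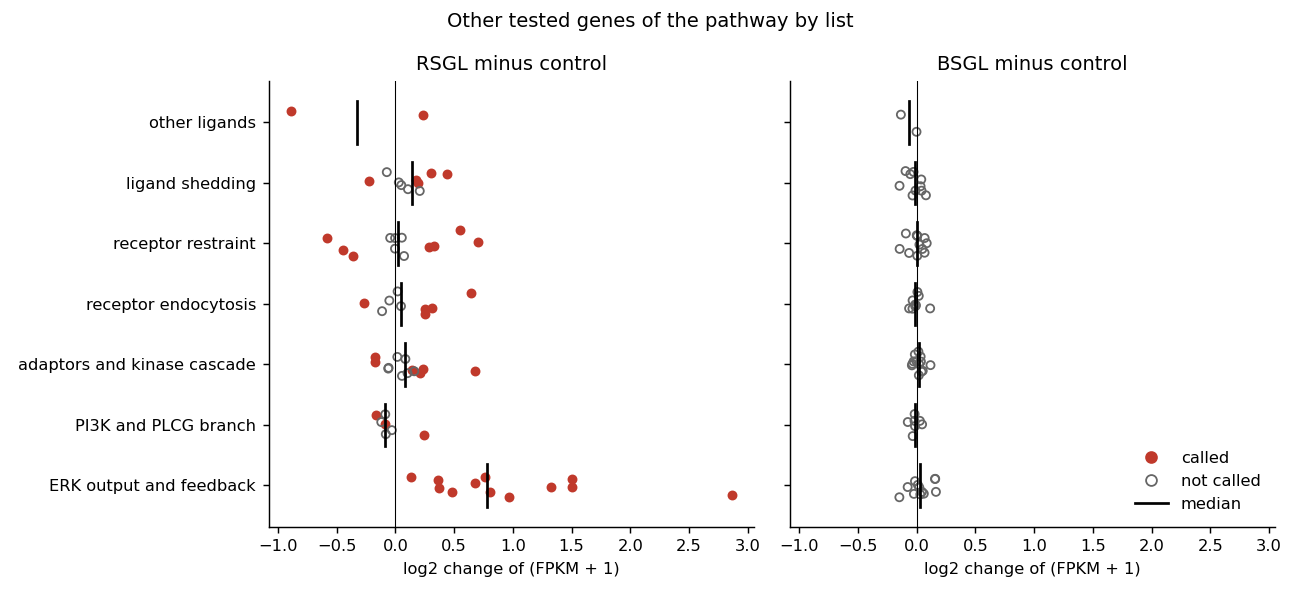
Log2 changes of the 65 other tested genes of the pathway by list, for RSGL minus control (left) and BSGL minus control (right), with filled points called at an adjusted p under 0.05 and a line at each list's median. All 12 ERK output genes are higher under RSGL, the other lists hold called genes on both sides of 0, and no gene is called under BSGL.

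Likeness of pattern was taken as the root mean square difference over the 9 libraries between log2(FPKM + 1) values centred on the control mean, among 10903 protein-coding genes. Among the 3 genes nearest to EREG were CLGN (0.0518) and SLFN5 (0.0594). AREG lay nearest to FLCN (0.0694), WSB1 (0.0711) and AMPD3 (0.0761). Nearest to TGFA were CD274 (0.0839), ZNF185 (0.09) and NIPAL4 (0.101), and to HBEGF RRAGD (0.0716), ITGB5 (0.0748) and GADD45A (0.0783). EGFR lay nearest to CLIP2 (0.08), TUBE1 (0.0819) and CLDN1 (0.0844). Among the members themselves, TGFA and HBEGF were the closest pair, at 0.14, while EREG and AREG, neighbours on the chromosome, were 0.329 apart. ERBB2 lay nearest to GPAA1 (0.0201), NF1 (0.0295) and CEP250 (0.0302), and 0.62 to 0.943 from the other 5 tested members.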

How the data were processed

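Gene expression was measured by RNA-seq in 9 libraries, grouped by the treatment labels. The authors deposited FPKM per gene, and the submitters' processing notes name, without their settings, the aligner HISAT2 2.0.5, the counter featureCounts 1.5.0-p3 and the package DESeq2 1.16.1. Gene coordinates are on GRCh38. FPKM is scaled to each library's total, so changes are relative to the other genes of a library. All values under 300 fragments lay within 0.01 of a whole number of fragments. This gave the depth, 16720414 to 18738947 fragments, and Poisson intervals, which cover counting error only.

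Members and gene lists were chosen with earlier results of these data known. Tests used limma 3.58.1 in R 4.3.3 on log2(FPKM + 1), with trend and robust options, all 9 libraries and a filter of 1 FPKM in 3 or more libraries. p-values were adjusted by Benjamini-Hochberg over all 12775 genes, and the fit was tested on simulated data. Far fewer genes were changed in that simulation than were called here under RSGL, so it does not cover changes this widespread. Named were all 10 members and, per list, the 3 called genes with the largest change between RSGL and control among those averaging at least 5 FPKM in the higher group with no overlap between libraries, plus genes that a count of 5 or fewer names. A few genes that this rule names are not reported here. Likeness and promoters are descriptions. Alternatives changed the pseudocount, filter, scaling, model or libraries.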

Additional observations from a re-analysis of the deposited data

How the results depend on the processing

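Over 20 alternatives EREG, AREG, TGFA, HBEGF and EGFR kept their direction and call between RSGL and control, with log2 changes of 1.41 to 1.5, 0.87 to 0.95, 1.23 to 1.59, 1.13 to 1.41 and 0.83 to 1.03. Between 5 and 6 members were called for RSGL against control and for RSGL against BSGL, and 0 for BSGL against control. Over all genes 54.8%, 54% and 0.0861% were called in these comparisons in the main fit. Over the alternatives 5041 to 7279, 5020 to 7164 and 0 to 31 genes were called in all. ERBB2 was the member whose call was lost, as given above. Its BSGL minus control difference, 0.02, turned to -0.00161 without BSGL replicate 3 and ran up to 0.069 (without BSGL replicate 1) on leaving out 1 library. None of these values was called, and the cause was not tested. Calls of RHBDF1 were lost in 9 alternatives, of AKT1 in 4 and of MAP2K2 in 1 (upper-quartile scaling, adjusted p = 0.0502, limma).

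Same-numbered libraries showed no visible shared deviation, with correlations of -0.212 to 0.121, where others had -0.108 to 0.154. With 3 libraries per group this cannot show whether same-numbered samples were handled together. With the replicate block 6, 0 and 6 members were called in RSGL against control, BSGL against control and RSGL against BSGL, and 6792 genes in all for RSGL against control, where 7005 were called without it. RHBDF1 missed the threshold with the block (limma adjusted p = 0.0835). Depth limits ERBB4 and EPGN, which held at most 4 and 10 fragments in a library.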
